A study of Homo sapiens with 4 samples.

Results

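The messenger RNAs of 10 nuclear genes of mitochondrial protein quality control were followed in pancreatic cancer cells treated with neobractatin (NBT), trametinib or both (cotreatment, or the combination). The genes are the chaperones HSPA9, HSPD1, HSPE1 and TRAP1, the proteases or protease subunits LONP1, CLPP, CLPX, YME1L1 and AFG3L2, and the transcription factor ATF5. They were taken by their exact symbols, and all 10 are among the 16834 genes of the expression table. The read-through gene HSPE1-MOB4, which joins HSPE1 to its neighbor MOB4, was kept apart and is given with HSPE1.

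MIA PaCa-2, an established human cell line of pancreatic ductal adenocarcinoma (PDAC), was used in 4 conditions of 12 h each: control, 1 µM NBT, 5 µM trametinib, and the combination of 1 µM NBT with 5 µM trametinib. NBT is a natural compound of Garcinia bracteata, and trametinib inhibits the kinase MEK. The labels give the genotype of all cells as WT and do not say whether the control received a solvent. Each condition was sequenced as 1 library, so no value has a replicate check, no p-value is given, and the variation between cultures was not measured. The titles name MIA PaCa-2 for every library, whereas the cell line entries of the labels differ in their number. The libraries held from 18776212 to 19614763 estimated reads. As a check of the labels, the median log2 ratio of 4 genes driven by MAPK signaling (DUSP6, SPRY4, ETV4 and ETV5) was -4.03 under trametinib and -3.73 under the combination against the control, and 0.68 under NBT. Of the epithelial markers, EPCAM had from 3113 to 3502 reads, KRT8 from 26811 (combination) to 63594 (control) and KRT18 from 14049 (combination) to 41334 (control). KRT19 was also looked for but is not among the genes of the expression table. The mesenchymal marker VIM had 202 reads in the control, 249 under NBT, 425 under trametinib and 500 under cotreatment, and COL1A1 had 45, 27, 98 and 53. PTPRC and PECAM1, markers of blood and endothelial cells, had at most 26 reads in any library. The part of these marker differences in the results was not tested.

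Most mitochondrial proteins are made in the cytosol and enter the organelle unfolded. HSPA9, the mitochondrial HSP70, pulls them through the inner membrane and helps them fold, and the barrel of HSPD1 (HSP60) with its lid HSPE1 (HSP10) completes the folding of many. TRAP1 is the mitochondrial HSP90. Damaged proteins of the matrix are degraded by LONP1 and by CLPP, a peptidase that the unfoldase CLPX feeds, and proteins of the inner membrane are degraded by YME1L1 and AFG3L2. When folding in the organelle fails, cells raise such genes in the mitochondrial unfolded protein response, in which ATF5, a relative of the stress factor ATF4, takes part.

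With NBT, HSPA9 and LONP1 were higher than in the control library, by 1.58 and 1.62 times, and under the combination by 1.95 and 2.13 times, whereas under trametinib alone they stood at 0.966 and 1.02 of it. HSPD1 and HSPE1 stood apart from both, with log2 ratios of 0.01 and 0.03 for NBT and of -0.29 and -0.37 for the combination. ATF5 was lower in every treated library and stood at 0.497 of its control value under the combination. TRAP1 and CLPP were also lowest under the combination, YME1L1 was 1.32 times higher there, and AFG3L2 and CLPX in that library differed from the control by less than counting error. All these values are shares of a library's reads, so less of a given RNA and more of the other RNAs cannot be told apart. A change in the total RNA per cell is not seen in them.

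**Figure D1:**
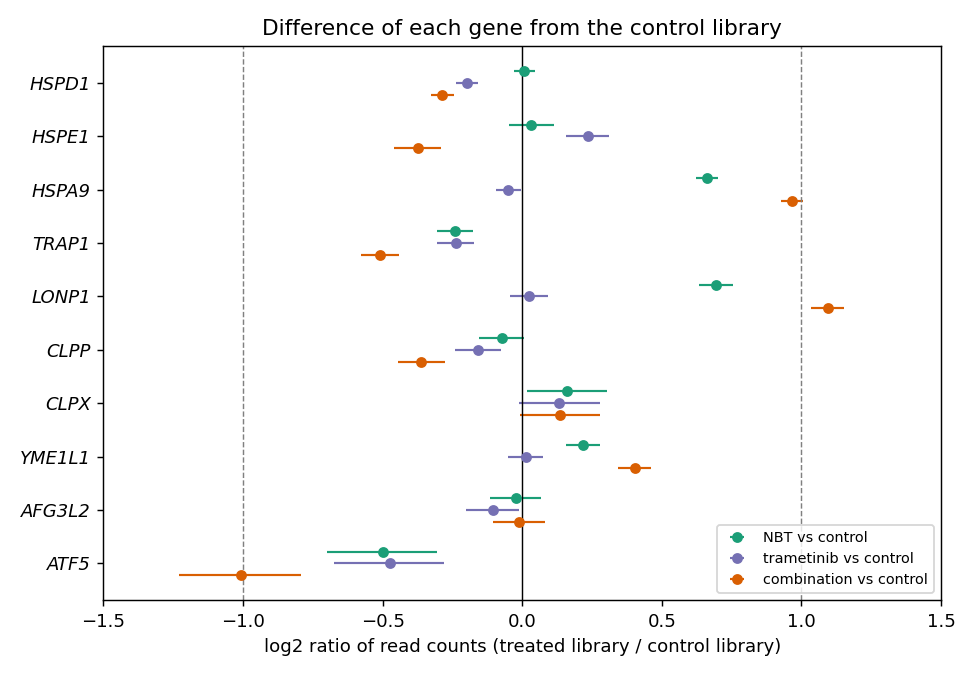
Log2 ratio of the read counts of each gene, treated library over control library, for NBT, trametinib and the combination. Bars are exact 95% intervals for counting error only, and dashed lines mark ratios of 2-fold. HSPA9 and LONP1 lie to the right under NBT and the combination, and ATF5 lies to the left in all 3.

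A gene was counted as past a limit when its log2 ratio reached 2-fold, or 1.5-fold, among genes with at least 50 reads in at least 1 of the 2 libraries compared, and all 10 genes met that minimum in all 4 libraries. With NBT against control 2 of the 10 genes were at least 1.5-fold higher (HSPA9 and LONP1) and 0 were lower. Of 11081 genes tested, 4.86% were at least 1.5-fold higher and 3.85% lower, 8.72% in all, so 2 in 10 is above the background share by about 1 gene. That split turned with the deposited TPM values, where 41.0% of the genes past 1.5-fold were higher against 55.8% by read counts. At 2-fold 0 of the 10 passed, and 2.33% of all genes did. With trametinib against control 0 of the 10 genes passed 1.5-fold, where 14.8% of 11222 genes did and 5.55% passed 2-fold.

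With the combination against control 2 of the 10 genes were at least 1.5-fold higher and 1, ATF5, was lower, where 12.9% and 10.8% of 11207 genes were. At 2-fold LONP1 passed as higher and ATF5 as lower, 1 gene in each direction, against 4.56% and 4.09% of all genes, or 8.65% in both directions. A count of 3 in 10 is close to the 23.8% of all genes that passed 1.5-fold in either direction, so the number of genes past the limit does not set the 10 apart. The median log2 ratio of the 10 genes was 0.02 under NBT, -0.08 under trametinib and -0.15 under the combination, and that of all genes tested was -0.0026, 0.06 and 0.02. A median near 0 covers genes that stood on opposite sides of the control.

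NBT was also added on top of trametinib, a comparison made from the other two libraries. In it HSPA9 and LONP1 were again higher, both past 2-fold, where 2.8% of 11267 genes were at least 2-fold higher and 6.59% differed by 2-fold either way. The interval of HSPA9, 0.98 to 1.05 on the log2 scale, included the 2-fold limit. Its value fell to 0.999, just below that limit, with TPM and a pseudocount of 1. At 1.5-fold HSPA9 and LONP1 passed as higher and HSPE1 as lower, against 8.32% and 10.7% of all genes, 19% together. The value of HSPE1, -0.61 on the log2 scale, was close to the limit and did not pass it with TMM scaling (-0.56), with DESeq2's size factors (-0.58) or with HSPE1-MOB4 reads added (-0.49). Against the NBT library 0 of the 10 genes passed 1.5-fold in the combination, where 11.2% of 11173 genes did and 3.87% passed 2-fold.

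**Figure D2:**
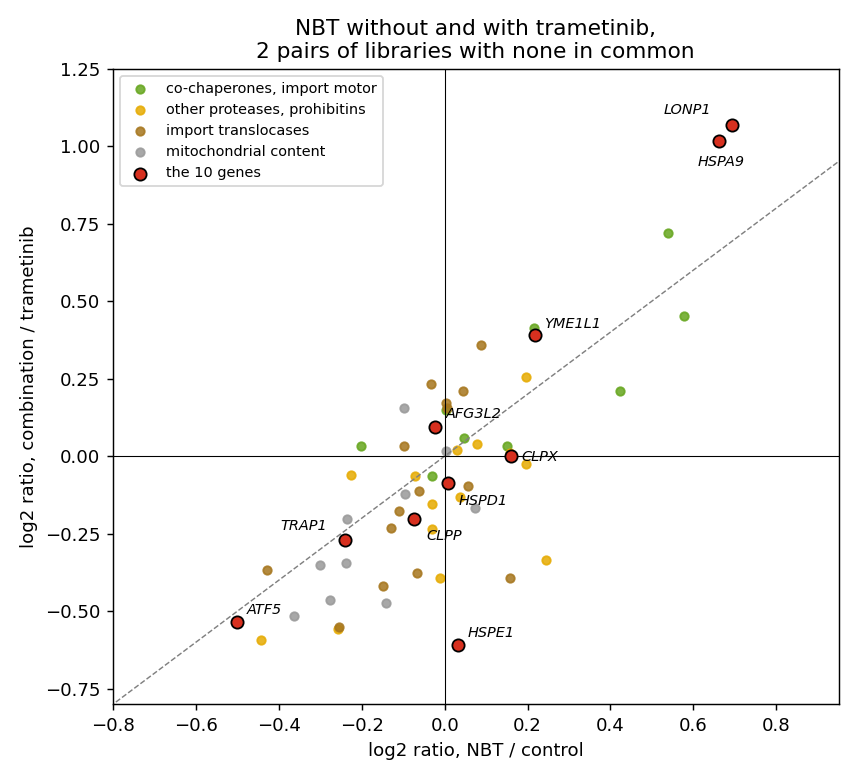
Log2 ratio under NBT alone (NBT over control, horizontal axis) against that of NBT added to trametinib (combination over trametinib, vertical axis) for the 10 genes and for 4 lists of mitochondrial genes. On the dashed line both are equal. HSPA9 and LONP1 have the highest values on both axes among the genes plotted, and HSPE1 lies lowest on the vertical axis with a value near 0 on the horizontal one.

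HSPA9 (NCBI Gene 3313, chr5:138553756-138575401 of GRCh38.p14) had 8255 reads in the control library, 13524 under NBT, 8045 under trametinib and 16840 under the combination. The libraries under NBT were high and the other two alike. Its level per length was 197 TPM, a unit that divides by transcript length and library depth, in the control, 297 under NBT, 186 under trametinib and 374 under the combination. Against the control its log2 ratio was 0.66 under NBT (95% interval from 0.62 to 0.70), -0.05 under trametinib (-0.09 to -0.01) and 0.97 under the combination (0.93 to 1.00). Added to trametinib, NBT went with a log2 ratio of 1.02 (0.98 to 1.05). The combination exceeded the sum of both single-drug log2 ratios by 0.35 (0.30 to 0.41), and all these intervals cover counting error only. HSPA9 has 1 transcript in the table and whole-number counts in every library.

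LONP1 (NCBI Gene 9361, chr19:5691834-5720452), the ATP-dependent protease of the matrix, had 3365 reads in control cells, 5635 under NBT, 3454 under trametinib and 7504 under cotreatment. The order of the libraries was thus NBT and the combination above the other two, as for HSPA9. The log2 ratio against the control was 0.69 under NBT (0.63 to 0.76), 0.02 under trametinib (-0.04 to 0.09, and -0.05 with TMM scaling, a library factor of edgeR) and 1.09 under the combination (1.04 to 1.15). Its departure from the sum of the single drugs, 0.38 (0.29 to 0.46), was close to that of HSPA9. A departure of at least 2-fold was seen for 0 of the 10 genes, where 2.33% of 11367 genes showed one, and of at least 1.5-fold for HSPE1 only, 1 of 10, where 8.59% did, and HSPE1 fell short of it with HSPE1-MOB4 reads added. LONP1 reads were divided over 4 RefSeq transcripts. NM_001276479.2 took 63.4% of them in the control, 74.2% under NBT, 80.4% under trametinib and 79.6% under the combination, and NM_004793.4 took 36.5%, 24.9%, 19.5% and 19.5%. The shares differed between the trametinib and the control library although the sum was nearly equal. They are estimated divisions of reads between transcripts of the same gene, without an interval, and whether transcript use differed was not tested.

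The promoters of HSPA9 and LONP1 are shown because both genes were higher in both libraries under NBT. Each window holds 250 bases before and 50 after a RefSeq start site (GRCh38.p14), 5′ to 3′ on the minus strand, with the 50 transcribed bases in capitals. The HSPA9 window is chr5:138575352-138575651. For LONP1 the table lists an outer start, with the window chr19:5720403-5720702, and an inner one with the window chr19:5720097-5720396.
HSPA9: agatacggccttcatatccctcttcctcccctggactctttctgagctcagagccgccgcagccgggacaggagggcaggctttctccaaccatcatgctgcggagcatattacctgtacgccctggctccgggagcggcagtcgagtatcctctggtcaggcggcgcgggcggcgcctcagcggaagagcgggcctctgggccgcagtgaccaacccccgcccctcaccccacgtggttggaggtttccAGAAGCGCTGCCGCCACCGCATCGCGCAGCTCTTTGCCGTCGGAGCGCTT
LONP1 outer: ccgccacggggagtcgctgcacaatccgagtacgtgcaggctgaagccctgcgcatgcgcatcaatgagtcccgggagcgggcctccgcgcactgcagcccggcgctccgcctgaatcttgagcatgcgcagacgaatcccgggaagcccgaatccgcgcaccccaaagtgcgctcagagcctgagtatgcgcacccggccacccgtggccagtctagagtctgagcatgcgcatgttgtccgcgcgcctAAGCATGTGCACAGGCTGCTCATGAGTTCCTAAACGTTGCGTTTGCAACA
LONP1 inner: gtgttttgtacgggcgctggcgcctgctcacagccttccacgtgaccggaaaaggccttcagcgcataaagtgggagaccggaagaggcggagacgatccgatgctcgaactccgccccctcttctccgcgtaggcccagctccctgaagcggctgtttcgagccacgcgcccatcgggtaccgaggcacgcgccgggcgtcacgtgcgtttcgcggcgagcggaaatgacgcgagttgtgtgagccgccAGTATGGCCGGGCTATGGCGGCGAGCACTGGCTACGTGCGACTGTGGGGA
These 3 windows were searched on both strands for 4 patterns. TGATGNAA is a core of the element bound by ATF4 and C/EBP dimers and is found in 3.62% of 35116 human promoter windows. TGACGTCA is the cAMP response element (1.85%), the heat shock element was searched as a run of alternating GAA and TTC units (0.49%), and TGACNNNGC is a core of the antioxidant response element (13.3%). None of the 4 patterns is in these 3 windows, which says only that the letters are not within these bases.

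HSPD1 (NCBI Gene 3329, chr2:197486584-197500274) had 10990 reads in control cells, 11432 under NBT, 9666 under trametinib and 9417 under cotreatment. The libraries without trametinib were the high ones. Its log2 ratio was 0.01 under NBT (-0.03 to 0.04, and -0.06 by TPM), -0.20 under trametinib (-0.24 to -0.16) and -0.29 under the combination (-0.33 to -0.25). HSPD1 under NBT thus lay close to the control on either scale, whereas HSPA9, which works ahead of it in folding, stood at 0.66. Within a library, which no scaling can change, the TPM ratio of HSPA9 to HSPD1 was 0.379 in the control, 0.597 under NBT, 0.420 under trametinib and 0.903 under the combination. HSPD1 reads were whole numbers in all libraries.

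HSPE1 (NCBI Gene 3336, chr2:197500379-197503449) lies head to head with HSPD1, with 104 bases between their start sites. Their promoter windows share 204 bases. The window of HSPE1, chr2:197500129-197500428 on the plus strand, is given with the bases between the 2 start sites in capitals, since both genes are read outward from that stretch.
HSPE1: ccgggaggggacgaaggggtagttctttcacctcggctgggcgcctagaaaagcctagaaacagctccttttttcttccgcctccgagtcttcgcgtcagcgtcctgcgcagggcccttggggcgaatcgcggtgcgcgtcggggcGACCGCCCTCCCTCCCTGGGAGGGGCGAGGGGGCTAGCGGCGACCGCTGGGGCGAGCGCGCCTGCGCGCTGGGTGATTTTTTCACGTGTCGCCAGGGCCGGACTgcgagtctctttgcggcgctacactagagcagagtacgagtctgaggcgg
RefSeq lists a second, inner start of HSPD1, whose window on the minus strand is chr2:197499791-197500090. It holds the heat shock element as 2 overlapping matches, 1 on each strand, between positions 197500068 and 197500085, here in capitals.
HSPD1 inner: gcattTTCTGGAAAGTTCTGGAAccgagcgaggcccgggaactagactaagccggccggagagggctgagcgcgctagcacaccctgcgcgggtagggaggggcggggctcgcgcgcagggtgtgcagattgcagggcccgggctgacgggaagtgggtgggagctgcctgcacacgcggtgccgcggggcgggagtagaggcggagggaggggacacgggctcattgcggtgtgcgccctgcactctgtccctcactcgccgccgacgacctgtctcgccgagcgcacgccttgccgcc
Of 12 windows of 8 of the genes in the promoter table, this is the one with that pattern, which is also in windows of HSPA8, HSP90AA1 and HSP90AB1 among the genes of the lists below. CLPP and YME1L1 are not in the table.

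HSPE1 had 2505 reads in control cells, 2653 under NBT, 2973 under trametinib and 2019 under cotreatment. It was highest under trametinib alone and lowest when NBT was added. The log2 ratio was 0.03 under NBT (-0.05 to 0.11, and -0.03 by TPM), 0.23 under trametinib (0.16 to 0.31) and -0.37 under the combination (-0.46 to -0.29). The combination fell short of the sum of both single drugs by a departure of -0.64 (-0.75 to -0.53). The TPM ratio of HSPE1 to HSPD1 was 0.987 in the control, 1.00 under NBT, 1.33 under trametinib and 0.928 under the combination, so lid and barrel transcripts were near 1 to 1 in all but the trametinib library.

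HSPE1 reads can be shared with HSPE1-MOB4 (NCBI Gene 100529241, chr2:197500379-197553699), which starts at the same base. The read-through gene was assigned 473 reads in control cells, 90 under NBT, 184 under trametinib and 301 under cotreatment. Its reads were 15.9% of those of both genes in the control and 3.28% under NBT, a larger change than that of HSPE1 itself. How its reads were divided also involves MOB4, which had 753 reads in the control and 1067 under NBT. With all read-through reads added to HSPE1, the log2 ratio became -0.17 under NBT (-0.24 to -0.09), 0.07 under trametinib (-0.0022 to 0.14) and -0.42 under the combination (-0.50 to -0.34), and the departure became -0.32. The lower level of HSPE1 under the combination therefore held either way, and its higher level under trametinib depended on the assignment of shared reads.

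**Figure D3:**
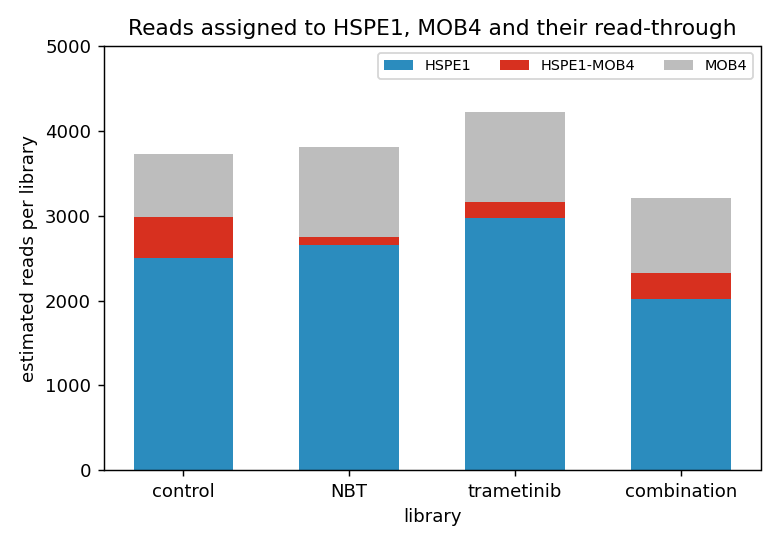
Estimated reads assigned to HSPE1, to the read-through gene HSPE1-MOB4 and to MOB4 in each library, stacked, with the axis from 0. The read-through share is largest in the control (473 reads) and smallest under NBT (90 reads).

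TRAP1 (NCBI Gene 10131, chr16:3658037-3717524) had 4166 reads in control cells, 3652 under NBT, 3564 under trametinib and 3056 under cotreatment. All treated libraries were below the control, and the combination was the lowest. The log2 ratios were -0.24 under NBT (-0.30 to -0.18), -0.24 under trametinib (-0.30 to -0.17) and -0.51 under the combination (-0.58 to -0.44). Their sum, -0.48, differed from the combination by -0.03, with an interval from -0.13 to 0.06. Among the 8 genes with a window in the promoter table, TRAP1 is the one whose window holds TGACGTCA, at chr16:3717611-3717618, in capitals in the window chr16:3717475-3717774 on the minus strand. The window also holds TGACNNNGC.
TRAP1: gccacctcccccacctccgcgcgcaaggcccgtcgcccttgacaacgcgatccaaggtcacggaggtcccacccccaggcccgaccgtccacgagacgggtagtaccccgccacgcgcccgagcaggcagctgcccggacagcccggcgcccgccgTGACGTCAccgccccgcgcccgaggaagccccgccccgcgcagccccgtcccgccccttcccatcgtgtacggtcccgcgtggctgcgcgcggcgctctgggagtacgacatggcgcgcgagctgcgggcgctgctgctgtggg

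The other proteases differed less between libraries than LONP1. CLPP (NCBI Gene 8192, chr19:6361531-6370242), the peptidase of the CLPXP complex, had 2532 reads in control cells, 2490 under NBT, 2288 under trametinib and 2059 under cotreatment. Its log2 ratio was -0.07 under NBT (-0.15 to 0.01), -0.16 under trametinib (-0.24 to -0.08) and lowest under the combination, at -0.36 (-0.45 to -0.28). CLPX (NCBI Gene 10845, chr15:65148219-65185342), the unfoldase of the same complex, had 748, 865, 828 and 858 reads in the same order. Its log2 ratio was 0.16 under NBT (0.02 to 0.30), 0.13 under trametinib (-0.01 to 0.28) and 0.13 under the combination (-0.01 to 0.28). The intervals under trametinib and the combination included 0. The TPM ratio of CLPX to CLPP was 0.163 in the control and 0.228 under the combination. The TPM ratio of LONP1 to CLPP, the pair of matrix proteases, was 1.08 in the control, 1.85 under NBT, 1.24 under trametinib and 2.99 under the combination.

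The proteases of the inner membrane also parted. YME1L1 (NCBI Gene 10730, chr10:27110111-27154384), whose active site faces the intermembrane space, had 4025 reads in control cells, 4846 under NBT, 4096 under trametinib and 5561 under cotreatment. Its libraries stood in the order seen for HSPA9 and LONP1 at a smaller size, with log2 ratios of 0.22 under NBT (0.16 to 0.28), 0.01 under trametinib (-0.05 to 0.08, and -0.06 with TMM scaling) and 0.40 under the combination (0.34 to 0.46). AFG3L2 (NCBI Gene 10939, chr18:12328944-12377227), whose active site faces the matrix, had 1866, 1900, 1751 and 1933 reads. With the combination its log2 ratio was -0.01 (-0.10 to 0.08).

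ATF5 (NCBI Gene 22809, chr19:49928906-49933935) had 507 reads in control cells, 371 under NBT, 368 under trametinib and 263 under cotreatment. The control was highest, both single drugs were alike, and the combination was lowest. The log2 ratio was -0.50 under NBT (-0.70 to -0.30), -0.48 under trametinib (-0.67 to -0.28) and -1.01 under the combination (-1.23 to -0.79), whose interval includes the 2-fold limit. The combination differed from the sum of both drugs, -0.98, by -0.03 (-0.33 to 0.27). ATF4, which like ATF5 is controlled at translation, had 8712 reads in control cells, 13221 under NBT, 10493 under trametinib and 13418 under cotreatment. The TPM ratio of ATF5 to ATF4 was 0.0369 in the control and 0.0123 under the combination. NM_012068.5 took most ATF5 reads in every library, from 64.3% under trametinib to 81.1% under the combination.

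Per length, HSPD1 (518 TPM) and HSPE1 (511 TPM) had the highest levels in the control, and their counting intervals overlapped. TRAP1 (199 TPM) and HSPA9 (197 TPM) followed, also with overlapping intervals, and then LONP1 (120 TPM), CLPP (111 TPM), YME1L1 (100.1 TPM), AFG3L2 (62.6 TPM), ATF5 (24.0 TPM) and CLPX (18.1 TPM). With the combination HSPA9 (374 TPM) came next to HSPE1 (384 TPM), with overlapping intervals, and LONP1 (252 TPM) stood above TRAP1 (136 TPM). ATF5 was above CLPX in the control and below it under the combination (11.5 against 19.3 TPM).

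**Figure D4:**
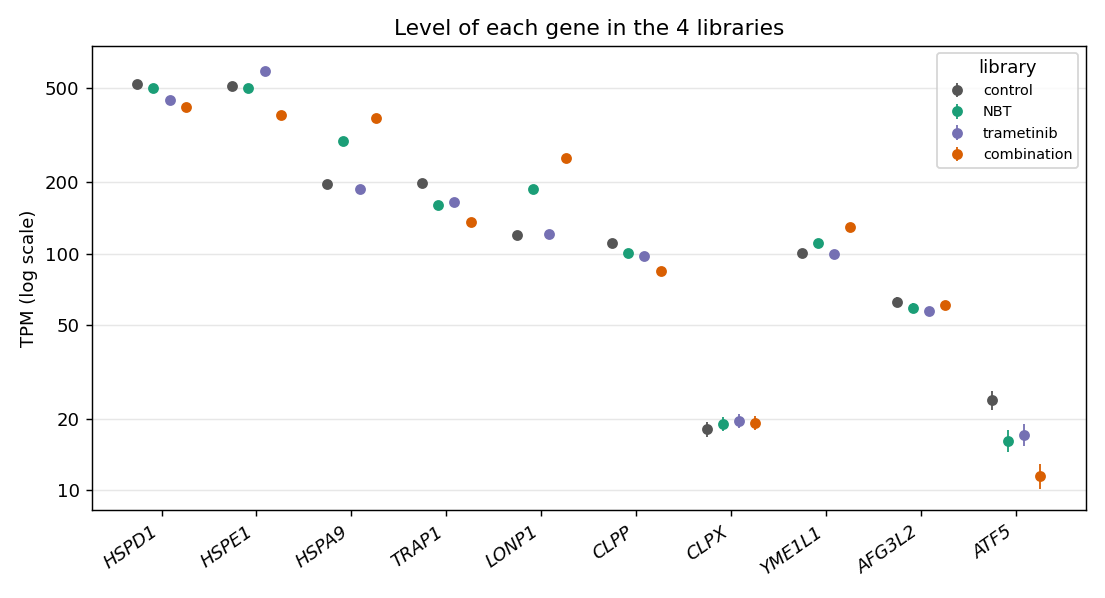
Level of each of the 10 genes in TPM (log axis) in the control, NBT, trametinib and combination libraries. Bars are 95% Poisson intervals of the read count, for counting error only. HSPD1 and HSPE1 have the highest levels in the control, and HSPA9 under the combination (374 TPM) reaches the range of HSPE1 (384 TPM).

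Relatives of these proteins work in other compartments. BiP, the HSP70 of the endoplasmic reticulum encoded by HSPA5, had 9310 reads in control cells, 61352 under NBT, 8012 under trametinib and 76120 under cotreatment, and so was 6.37 times higher under NBT. HSP90B1, the HSP90 of the same compartment, was 2.32 times higher under NBT, whereas TRAP1 stood at 0.847 of the control. The cytosolic HSP90AA1 and HSP90AB1 had log2 ratios of 0.29 and 0.12 under NBT and of 0.41 and 0.18 under the combination. The TPM ratio of HSPA9 to HSPA5 was 0.788 in the control and 0.196 under NBT. The cytosolic HSP70 gene HSPA8 differed by a log2 ratio of 0.10 under NBT and 0.11 under the combination. The inducible HSPA1A and HSPA1B, near-identical copies whose reads may be divided between them, had log2 ratios of 1.68 and 1.86 under the combination and of 0.46 and 0.69 under NBT. The 8 subunits of the cytosolic chaperonin, counterparts of HSPD1, lay from -0.11 to 0.05 under NBT and from -0.25 to -0.02 under the combination. LONP2, the peroxisomal relative of LONP1, had -0.11 under NBT and -0.17 under the combination. HSPA9 thus stood between HSPA5 and HSPA8 in both libraries under NBT and, under the combination, below HSPA1A and HSPA1B.

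**Figure D5:**
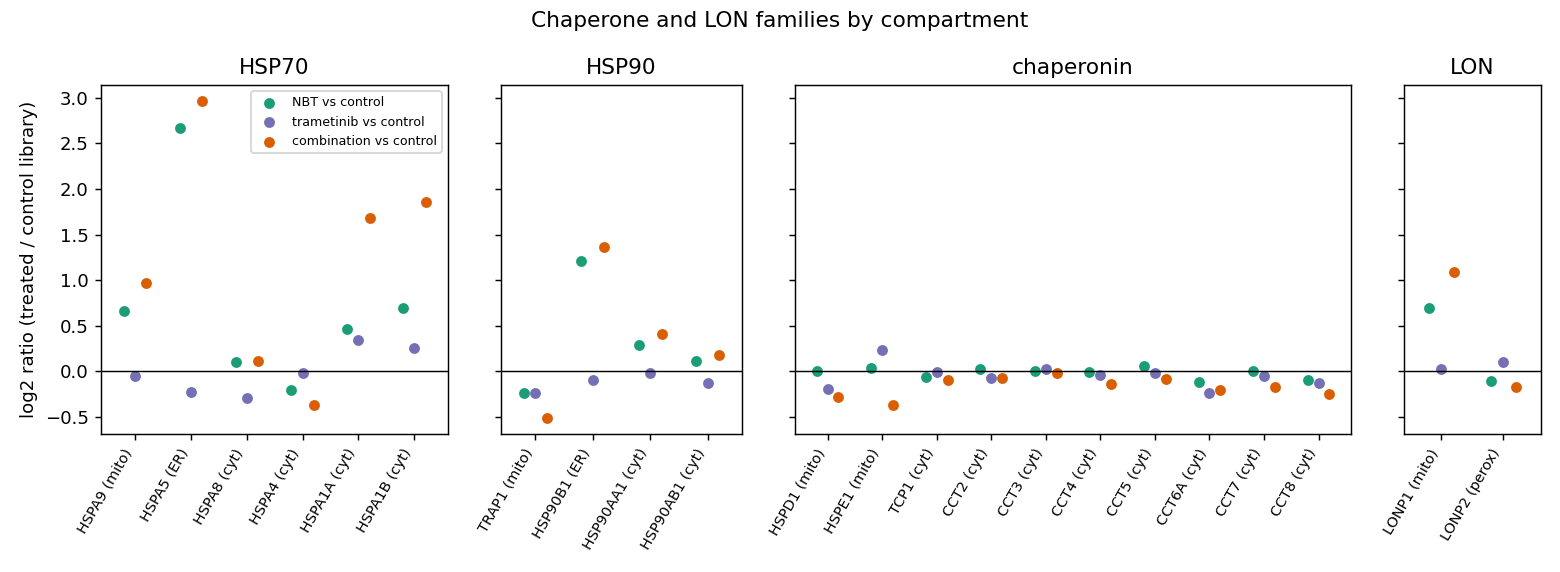
Log2 ratio against the control library for HSP70, HSP90, chaperonin and LON family genes, grouped by family, with the compartment of each protein in brackets (mito, mitochondria; ER, endoplasmic reticulum; cyt, cytosol; perox, peroxisome). HSPA5 has the highest points, at 2.67 under NBT and 2.97 under the combination.

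The partners of HSPA9 were uneven. Of 9 genes of co-chaperones and the import motor, 0 passed 1.5-fold under NBT and 1 did under the combination, the co-chaperone gene HSCB, with 152 reads in the control and 241 under the combination. Over all genes 8.72% and 23.8% passed. The log2 ratio of HSCB, 0.60, fell below the limit with TMM scaling (0.57), size factors (0.57), TPM values (0.43 with a pseudocount of 0.1) and 5 added reads (0.58), so its call did not hold under these settings. The median log2 ratio of the 9 was 0.15 under NBT and 0.07 under the combination. Of the nucleotide exchange factors of HSPA9, GRPEL2 had 445 reads in control cells, 669 under NBT, 391 under trametinib and 667 under cotreatment, whereas GRPEL1 had 1140, 1026, 788 and 834. With the combination their log2 ratios were 0.52 (0.35 to 0.70) and -0.51 (-0.64 to -0.38), on opposite sides of the control. TIMM44, which tethers HSPA9 to the import channel, had 0.42 under NBT and 0.46 under the combination.

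Among 14 other proteases and prohibitins, 0 passed 1.5-fold under NBT and 2 did under the combination, both lower, where 10.8% of all genes were that much lower, a share near that of the list. PMPCA, a subunit of the peptidase that removes import signals, had 2962 reads in the control and 1645 under the combination, and its partner subunit PMPCB had 1238 and 1511. PHB, a prohibitin of the inner membrane, had 5149 and 3456. Of 15 import translocase genes TOMM40, the channel of the outer membrane, was at least 1.5-fold lower under the combination (6380 and 3619 reads), 1 gene of 15 against the same 10.8%, and the median of the list was -0.16. The 10 genes listed for mitochondrial content, such as citrate synthase (CS) and the porin VDAC1, had a median of -0.19 under NBT and -0.36 under the combination, and 8 of them were below 0 in each, where 50.4% and 47.7% of all genes were. The higher levels of HSPA9 and LONP1 were thus measured in libraries where most of those genes were lower, and whether that plays a part was not tested.

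Of 12 regulators of cellular stress responses, 5 were at least 1.5-fold higher under NBT (EIF2AK3, DDIT3, TRIB3, CEBPB and CEBPG), against 4.86% of all genes. By TPM with a pseudocount of 0.1 EIF2AK3 was at 0.50 in place of 0.61 on the log2 scale, below the limit. Under the combination these 5 and NFE2L2 were at least 1.5-fold higher, 6 in all against 12.9% of all genes. EIF2AK4 was at least 1.5-fold lower, where 10.8% of all genes were. Of the 12, 2 passed 1.5-fold under trametinib alone, both higher, where 14.8% of all genes passed in either direction. These were DDIT3 (log2 ratio 1.16) and NFE2L2 (0.62). NFE2L2 fell below the limit there with TMM scaling (0.55) and with size factors (0.55). DDIT3 (CHOP), a stress-induced bZIP factor like ATF4 and ATF5, had 196 reads in control cells, 1298 under NBT, 443 under trametinib and 2589 under cotreatment. CEBPB and TRIB3 had log2 ratios of 1.42 and 2.02 under NBT. DELE1 and EIF2AK1 (HRI), which carry mitochondrial stress signals to ATF4, had 0.01 and -0.27 under NBT, and the heat shock factor HSF1 had -0.22.

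Likeness of pattern was measured as the distance between the 3 log2 ratios against the control, among 6613 genes with at least 500 reads in each of the 4 libraries. The nearest genes to HSPD1 were NOL12, M6PR and VMA21, at distances of 0.024 to 0.029. Nearest to ATF5 were CLUH, KAT2A and CEMIP2, at 0.070 to 0.081. The same measure was applied to HSPA9 and LONP1 after their values were seen. Nearest to HSPA9 were TMED5, THAP5 and SEC23B, at 0.056 to 0.103, and nearest to LONP1 were DEDD2, ALG2 and UBE2J1, at 0.033 to 0.089. At a distance of 0.152, LONP1 was the 6th nearest gene to HSPA9 and HSPA9 the 12th nearest to LONP1. At 0.442, HSPE1 was the 2587th nearest gene to HSPD1 and HSPD1 the 1555th nearest to HSPE1. These are descriptions over 4 libraries that share 1 control.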

How the data were processed

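RNA of 4 conditions, 1 library each, was sequenced on the BGISEQ-500 platform. The authors deposited estimated counts per gene and per RefSeq transcript, without normalization, together with TPM values, which divide by transcript length and depth, and FPKM values, which were not used. The submitters' processing notes list Bowtie2 2.2.5, RSEM 1.2.8 and hg38. Shared reads are divided between genes in such counts, and 8 of the 10 genes had a count that was not whole in at least 1 library. The 10 genes and the 7 gene lists were chosen with earlier results of these data known.

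Estimated counts were rounded and scaled to library sums, and 0.5 reads were added before log2 ratios were taken. Intervals of ratios are 95% Clopper-Pearson intervals, and those of departures from additivity are normal intervals on the log scale from the 4 counts. All cover counting error only, since each condition has 1 library. They can be too narrow even for that, since PCR copies are not independent molecules and shared reads were divided by estimation. Genes with at least 50 reads in 1 of the 2 libraries compared were tested against the limits, in 5 comparisons. No significance test was run, because each condition has 1 library. Named genes are the 10, genes of the lists and, for HSPD1 and ATF5, the 3 genes nearest in pattern. The ratio and interval steps were tested on simulated data. Promoters came from RefSeq (GRCh38.p14). Alternatives were edgeR's TMM factors, DESeq2's size factors, deposited TPM values with pseudocounts of 0.1 and 1, 5 added reads, summed transcript counts, minimums of 10 reads and none, and HSPE1-MOB4 reads added to HSPE1. That last alternative for the departure of HSPE1, and the recount of 1.5-fold calls of list genes under the scaling, TPM and added-read alternatives, were chosen after seeing the data. The versions were Python 3.11.15 with numpy 2.4.6, pandas 2.3.3, scipy 1.17.1 and matplotlib 3.10.9, and edgeR 4.0.16 and DESeq2 1.42.0 in R 4.3.3.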

Additional observations from a re-analysis of the deposited data

Results flagged for a closer look

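For 2 of the genes trametinib went with opposite directions without and with NBT, each beyond counting error. HSPE1 had a log2 ratio of 0.23 for trametinib against control and of -0.41 for the combination against NBT. With the reads of HSPE1-MOB4 added to HSPE1 these were 0.07 and -0.25, and the interval of the first then reached 0. HSPA9 had -0.05 for trametinib against control and 0.30 for the combination against NBT. For each gene the difference between the 2 effects is the departure from additivity given above, -0.64 for HSPE1 and 0.35 for HSPA9. It has a counting interval only and was not tested, because each condition has 1 library.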

How the results depend on the processing

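No paired analysis was possible because each condition has 1 library. Of 366 single-gene values recomputed under the alternatives, 340 stayed inside the counting interval of the value reported, 26 lay outside it, the largest move was 0.316, and 0 of the values past 2-fold changed sign. Signs turned in 24 values, of which the largest in size as reported was -0.034, the departure of ATF5 from additivity. Among them HSPE1 under NBT moved from 0.03 to -0.17 with HSPE1-MOB4 reads added. The number of the 10 genes past 2-fold became 1 in place of 2 for the combination against control with 5 added reads. It also became 1 in place of 2 for the combination against trametinib with TPM and a pseudocount of 1, where HSPA9 was lost. For the combination against trametinib the number past 1.5-fold became 2 in place of 3 with both TMM and size factors, where HSPE1 was lost. With TPM the median of the 14 other proteases and prohibitins under the combination became -0.27 and -0.26 (pseudocounts 0.1 and 1) in place of -0.14, and 168 in place of 258 genes passed 2-fold under NBT (pseudocount 1), and the cause was not tested.

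The counts over all genes depend on the minimum of reads, since a lower minimum lets in more genes. With a minimum of 10 reads, 581 genes passed 2-fold and 1733 passed 1.5-fold under NBT, and 1132 and 2587 under trametinib. At 2-fold 1513 passed under the combination and 1197 under the combination against trametinib. For the combination against NBT 875 and 2126 passed. With no minimum, the numbers at 2-fold and 1.5-fold were 2153 and 3710 under NBT, 2956 and 4807 under trametinib and 3390 and 5844 under the combination. They were 2897 and 5203 for the combination against trametinib and 2690 and 4346 for the combination against NBT. There the share of higher genes past 2-fold was 61.2% in place of 47.5%.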
